A study of Mus musculus with 9 samples.

Results

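Tight junctions seal the space between epithelial cells. Most of the genes described here encode parts of their transmembrane strands or of the plaque beneath them. All were chosen by name as the protein-coding genes for claudins, the ZO scaffolds (Tjp1 and Tjp3 are described here) and the junctional adhesion molecules (F11r, Jam2 and Jam3). The same rule took in the MARVEL proteins (Ocln and Marveld1 to Marveld3) and the cingulins (Cgn and Cgnl1). Of the 35896 genes in the files, 44 met this rule, 32 claudins and 12 others. An expression filter left 23 of them for testing, 11 claudins and all 12 others, among 14648 genes.

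Poly-A RNA was sequenced from E14, a line of mouse embryonic stem cells grown on gelatin in serum medium, in 9 libraries of 3 groups with 3 replicates each, which the study calls paired biological replicates. The series asks whether the Arp2/3 complex, the nucleator of branched actin filaments, is needed when these cells leave self-renewal. Control cells with LIF2i stayed in self-renewal medium with the cytokine LIF, 1 µM PD0325901 (which blocks MEK) and 1 µM CHIR99021 (which blocks the kinase GSK3). The control cells grown without LIF2i had been deprived of all of these for 72 h, and the third group had been deprived for 72 h with 80 µM CK666, an Arp2/3 inhibitor. The labels give 72 h for the cells kept in LIF2i too. CK666 came from a DMSO stock, and whether the controls received DMSO is not given in the sources used here, so drug and solvent cannot be told apart. All groups come from a single cell line without a genetic change.

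Claudins are small membrane proteins that polymerise into the strands that close the junction, and the mix of claudins sets which ions and solutes pass. Occludin and tricellulin (Marveld2) run along these strands or at the corners where cells meet. ZO proteins link the strands to actin, cingulins link ZO proteins to actomyosin, and junctional adhesion molecules are immunoglobulin-type receptors that help place the complex. In the early mouse embryo such junctions first form in the outer cell layer, and the epiblast later becomes an epithelium around a lumen.

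The libraries held 16894327 to 22550952 estimated counts. At these depths 3 counts, taken here as the floor of detection, correspond to 0.142 to 0.182 CPM (counts scaled for library size with TMM factors), a limit that covers counting error only. The first principal component (53.7% of the variance) separated libraries with and without LIF2i, and the second (23.3%) set the replicate 1 library of each group apart from replicates 2 and 3. The stem cell markers Pou5f1 and Sox2 were present in every library, Pou5f1 at 767 to 1748 CPM and Sox2 at 82.4 to 576 CPM. The RNA is from whole cultures, so fewer cells of a kind and less RNA per cell cannot be told apart. Values below are in replicate order. Tests are edgeR's quasi-likelihood test with the replicate number as a block and Benjamini-Hochberg adjustment over all 14648 genes, and a gene is called at an adjusted p under 0.05.

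After LIF2i withdrawal most tested tight junction genes rose. Cldn6 and Cldn7 led among genes detected in every group, while Jam2, abundant in self-renewal, fell 119-fold. Of the 23 tested genes 17 were called (40.7% of all tested genes were), 16 of them raised (21.1% of all genes) and 1 lowered (19.7% of all genes). Their median log2 fold change was 1.53, against 0.01 over all tested genes, and 13 of the 23 were called at a log2 fold change of 1 or more in either direction (22.3% of all genes). The CPM of the 2 groups did not overlap for 16 of the 23 (40.7% of all genes). Some of these genes, such as Cldn1, Cldn34c1 and Cldn23, reached the filter only in libraries without LIF2i, so these counts describe the genes that passed and not all 44.

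**Figure D1:**
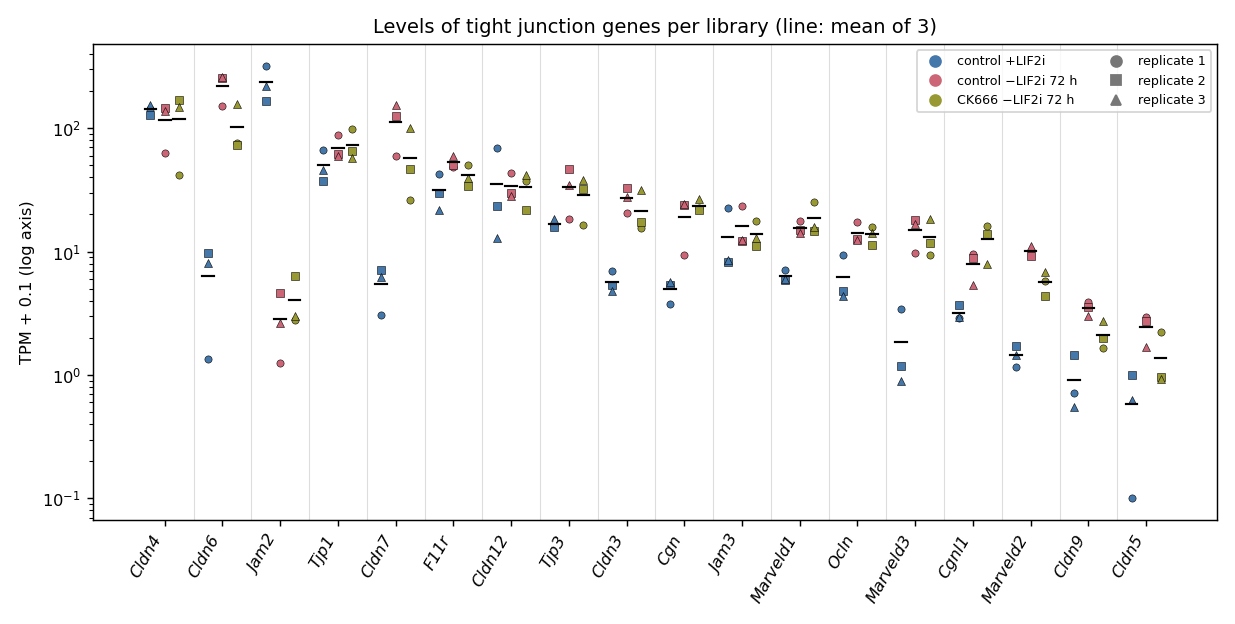
TPM + 0.1 on a log axis for 18 tight junction genes ordered by mean level, with colours for the 3 groups, symbols for the replicates and a line at the mean of 3. Cldn6 and Cldn7 lie in the middle of the range with LIF2i (means of 6.28 and 5.35 TPM) and near the top without it, Jam2 lies at the top with LIF2i and low without it, and Cldn4 stays near the top in most libraries.

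Among genes detected in every group the rise was steepest in Cldn6, a claudin known from early embryonic epithelia (chromosome 17, 23679249 to 23682446, plus strand, GRCm38). Cldn6 stood at 1.03, 10.4 and 8.38 CPM with LIF2i, at 116, 251 and 253 CPM without it, and at 61.4, 71.1 and 146 CPM without it in CK666. No library without LIF2i came near those with it, and the library with LIF2i of replicate 1 was the lowest of all. The withdrawal changed Cldn6 by 5.14 on the log2 scale (SE 0.48, edgeR adjusted p 0.000156), or 35.2-fold, in 3 of 3 pairs. Without the replicate 1 libraries its change was 4.76.

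Cldn7, a claudin of many simple epithelia that lies on chromosome 11 (69964779 to 69967885, plus strand), followed the same order. It stood at 1.92, 6.33 and 4.37 CPM with LIF2i, 35.9, 88.9 and 102 CPM without, and 17.4, 32.6 and 70.4 CPM in CK666. Replicate 1 was the lowest library of every group. Its withdrawal change was 4.15 (SE 0.28, edgeR adjusted p 1.08e-05), 17.8-fold, in 3 of 3 pairs.

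Cldn3, a sealing claudin, started at 4.13, 4.50 and 3.71 CPM with LIF2i. It reached 12.7, 25.2 and 21.0 CPM after withdrawal and 10.2, 13.5 and 23.7 CPM with CK666. The groups with and without LIF2i did not overlap, and Cldn3 rose by 2.19 on the log2 scale (SE 0.29, edgeR adjusted p 0.000419).

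Cldn4, whose product is also a sealing claudin, was already abundant in self-renewal. It stood at 135, 171 and 191 CPM with LIF2i, 62.0, 176 and 165 CPM without, and 43.6, 208 and 172 CPM in CK666. The low values were those of replicate 1 in both groups without LIF2i, and the groups overlapped. Its withdrawal change of -0.49 (SE 0.30, edgeR adjusted p 0.232) was not called and was 0.04 without the replicate 1 library with LIF2i.

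Cldn12, one of the claudins that lack the usual PDZ-binding end, was at 55.7, 37.7 and 32.1 CPM with LIF2i, 67.9, 52.8 and 63.4 CPM without, and 52.2, 43.9 and 51.4 CPM in CK666. Groups with and without LIF2i overlapped, though each withdrawn library exceeded its partner. The change of 0.57 (SE 0.16, edgeR adjusted p 0.0192) was called but held in only 11 of 19 alternative analyses, and not without the block (adjusted p 0.102), without replicate 2 (0.0749), without replicate 3 (0.193), without the library with LIF2i of replicate 3 (0.0980) or without the withdrawn control of replicate 2 (0.0517) or 3 (0.0954). It was also lost with length-scaled TPM (0.14, adjusted p 0.804) and limma on TPM (0.25, 0.663), where the change itself was smaller. In TPM it stood at 69.5, 23.5 and 12.9 with LIF2i and 43.5, 29.8 and 28.3 without, lower in pair 1 and higher in the other 2. The 4 annotated Cldn12 transcripts under 1000 bases were assigned 43.0, 10.5 and 0.684 TPM in the 3 libraries with LIF2i and 11.4, 9.58 and 3.30 TPM without. The 4 longer ones were assigned 26.5, 13.1 and 12.2 TPM and 32.1, 20.3 and 25.0 TPM, higher without LIF2i in 3 of 3 pairs.

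Among scarce claudins, Cldn9 stood at 0.442, 1.36 and 0.425 CPM with LIF2i, 2.85, 3.11 and 2.64 CPM without, and 1.23, 1.76 and 2.35 CPM in CK666. Its groups with and without LIF2i did not overlap, and its change of 2.05 (SE 0.52, edgeR adjusted p 0.0122) lost its call without replicate 3 (adjusted p 0.100) or the replicate 3 library with LIF2i (0.0595). Cldn1, a barrier claudin of skin, had no count in any library with LIF2i and stood at 2.07, 1.25 and 1.51 CPM without it and 0.995, 0.283 and 1.06 CPM in CK666. Against the floor of 3 counts per library it was at least 9.93-fold higher after withdrawal and at least 4.81-fold higher with CK666 (edgeR adjusted p 0.00161 and 0.00485). Both groups without LIF2i were above the floor in every library.

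Cldn34c1, on the X chromosome, was at 0, 0.0523 and 0.304 CPM with LIF2i, 1.06, 1.56 and 1.13 CPM without and 1.47, 0.963 and 0.670 CPM in CK666. It was called as raised (3.45, SE 0.96, edgeR adjusted p 0.0181). Relatives such as Cldn34c2 and Cldn34c4 lie on the same chromosome. Whether reads were shared between them was not tested, so the counts of Cldn34c1 are uncertain. Its call held in 13 of 18 alternatives. The call was lost without replicate 2 (adjusted p 0.151), without either control library of replicate 2 (0.0735 and 0.0763) and without the withdrawn control library of replicate 3 (0.0563), and with length-scaled TPM (0.0527). Cldn5, the main claudin of blood vessels, stood at 0 to 0.889 CPM with LIF2i and 1.40 to 2.34 CPM without, and its change of 2.14 (SE 0.93, edgeR adjusted p 0.0951) was not called, although DESeq2 (adjusted p 0.0385) and limma on TPM (0.0193) called it. Cldn19 and Cldn23 were not called either, with at most 1.73 and 1.06 CPM in any library. They gained calls in opposite directions without the replicate 1 libraries, Cldn19 at -2.67 (edgeR adjusted p 0.0154) and Cldn23 at 4.30 (0.0102).

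The other 21 claudins were not tested. Of these, 12 (Cldn13, Cldn16, Cldn17, Cldn22, Cldn24, Cldn34a, Cldn34b1 to Cldn34b4, Cldn34c4 and Cldn34d) had 0 counts in all 9 libraries. The remaining 9 (Cldn2, Cldn8, Cldn10, Cldn11, Cldn14, Cldn15, Cldn18, Cldn20 and Cldn34c2) never exceeded 12 counts in a library. Cldn18 had counts in the 3 libraries with LIF2i (0.147, 0.418 and 0.304 CPM) and 0 in the 3 control libraries without, while Cldn8 had 0 in the 3 with LIF2i. At such depth no difference can be read for either.

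Per length, the make-up of the claudin pool shifted. The summed TPM of all claudins was 227, 179 and 191 with LIF2i, 347, 601 and 614 without, and 204, 334 and 484 in CK666. With LIF2i, Cldn4 held 63.4, 71.9 and 81.1% of the claudin TPM, and after withdrawal 18.2, 24.5 and 22.6%. Cldn6 went from 0.553, 5.38 and 4.13% to 43.5, 42.6 and 42.1% of the pool, and Cldn7 from 1.30, 3.89 and 3.18% to 17.0, 20.8 and 25.0%. Cldn6 therefore replaced Cldn4 as the most abundant claudin transcript in each of the 3 withdrawn control libraries, at closely similar shares although the pool itself was smaller in replicate 1. In CK666 the shares were uneven: Cldn6 held 36.9, 21.8 and 32.2% and Cldn4 20.5, 50.8 and 30.4%. Cldn4 led the pool again in the CK666 library of replicate 2 and Cldn6 led in the other 2. These shares are a description and carry no test.

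**Figure D2:**
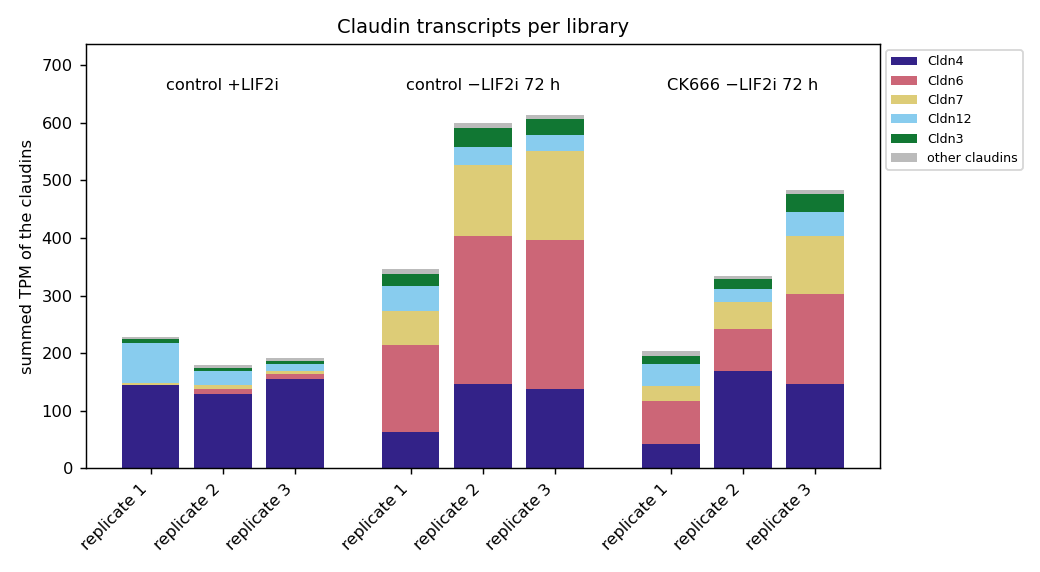
Summed TPM of the claudins in each library, stacked by gene. Cldn4 makes up most of the bars with LIF2i (63.4 to 81.1%), Cldn6 and Cldn7 are added after withdrawal, and the bars with CK666 are lower than those of the same-numbered controls without LIF2i.

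The promoters of Cldn4, Cldn6 and Cldn7, which led this pool, and of Cldn3, the neighbour of Cldn4, are shown because they hold the E-box CAGGTG, known as a site for the repressors of the Snail and Zeb families. Each window runs from 250 bases before to 50 bases after an annotated start in RefSeq (GRCm38.p6), is written 5′ to 3′ on the strand of the gene, and has the E-box on either strand in capitals. The first base of the matches lies at positions -93 and 41 from the start in Cldn6, -97 and -57 in Cldn7, 32 in Cldn3, and -14 and 12 in Cldn4. The other annotated start of Cldn7 had no match in its window, nor had any of the 3 windows of Cldn12, which held more of the pool than Cldn3 in most libraries.
Cldn6 (chr17:23679115-23679414, plus strand): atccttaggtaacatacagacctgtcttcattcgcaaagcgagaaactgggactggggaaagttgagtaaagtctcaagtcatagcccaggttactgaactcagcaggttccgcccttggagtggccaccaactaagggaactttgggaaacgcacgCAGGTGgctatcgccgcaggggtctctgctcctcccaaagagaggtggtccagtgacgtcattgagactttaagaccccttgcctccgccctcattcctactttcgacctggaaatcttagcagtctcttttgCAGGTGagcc
Cldn7 (chr11:69965171-69965470, plus strand): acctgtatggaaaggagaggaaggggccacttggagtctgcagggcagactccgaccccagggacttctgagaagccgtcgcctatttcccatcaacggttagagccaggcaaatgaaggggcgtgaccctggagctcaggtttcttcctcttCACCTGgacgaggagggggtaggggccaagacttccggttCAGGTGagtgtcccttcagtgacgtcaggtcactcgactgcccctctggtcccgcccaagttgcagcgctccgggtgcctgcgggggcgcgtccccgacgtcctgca
Cldn3 (chr5:134985964-134986263, plus strand): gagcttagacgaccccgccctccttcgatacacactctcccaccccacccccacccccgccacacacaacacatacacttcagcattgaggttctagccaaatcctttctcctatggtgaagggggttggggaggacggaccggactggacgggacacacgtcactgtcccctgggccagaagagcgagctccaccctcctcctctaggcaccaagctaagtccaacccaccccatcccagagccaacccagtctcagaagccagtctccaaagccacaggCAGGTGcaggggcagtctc
Cldn4 (chr5:134946885-134947184, minus strand): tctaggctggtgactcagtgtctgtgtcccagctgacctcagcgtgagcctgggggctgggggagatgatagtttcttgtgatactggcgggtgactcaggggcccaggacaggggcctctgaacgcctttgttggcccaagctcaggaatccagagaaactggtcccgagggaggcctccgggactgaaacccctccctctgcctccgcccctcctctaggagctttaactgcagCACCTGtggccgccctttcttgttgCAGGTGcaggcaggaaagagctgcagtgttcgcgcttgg
Promoter windows were found for 17 of the 23 tested genes, and 8 of the 17 held the E-box (47.1%): Cldn3, Cldn4, Cldn6, Cldn7, F11r, Marveld2, Ocln and Tjp3. Over all genes in the table the share was 22.6%, and over all windows 20.2%. Of the 13 raised genes with a window, 6 held it (46.2%), a share like that of all 17. Jam2, the only gene called as lowered, had no window, so raised and lowered genes cannot be compared. The Grainyhead-type motif AACCNGTT, searched on both strands, was found in Cgn and Cldn5 (11.8% of the 17, against 2.35% of all genes). Cldn5 was not called, which leaves Cgn alone among the 13 raised genes with a window (7.69%). Cldn4 and Tjp3 carried the E-box and were not called. A match describes the letters and shows no binding.

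Several of these genes are neighbours. Cldn3 and Cldn4 lie 39279 bases apart on chromosome 5, pointing away from each other, and Cldn3 was called as raised while Cldn4 was not. Cldn13 lies 29592 bases beyond Cldn4 and had no counts. Cldn6 and Cldn9 converge on chromosome 17 with 137 bases between their ends, and both were called as raised, from very different levels. Whether reads that run past the end of Cldn6 reached Cldn9 was not tested. Ocln and Marveld2, 43238 bases apart on chromosome 13, were both called as raised.

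The junctional adhesion molecules exchanged their leading gene. Jam2, which encodes JAM-B (chromosome 16, 84774123 to 84825928, plus strand), stood at 398, 246 and 325 CPM with LIF2i. It was at 1.11, 4.20 and 3.35 CPM after withdrawal and at 4.08, 8.38 and 3.35 CPM with CK666. No library without LIF2i exceeded 8.38 CPM and none with LIF2i was under 246 CPM. Jam2 changed by -6.90 (SE 0.51, edgeR adjusted p 4.77e-05), 119-fold lower in 3 of 3 pairs, and by -6.23 without the replicate 1 libraries.

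F11r, which encodes JAM-A, the form found at most epithelial junctions, was at 40.6, 48.3 and 37.5 CPM with LIF2i. It reached 64.6, 79.4 and 79.6 CPM after withdrawal and 55.3, 59.7 and 60.7 CPM with CK666. The 3 groups formed 3 separate ranges, and the withdrawal change was 0.82 (SE 0.13, edgeR adjusted p 0.000994). Jam3, for JAM-C, was at 18.2, 10.8 and 10.8 CPM with LIF2i, 23.9, 15.4 and 15.5 CPM without, and 17.3, 13.8 and 15.1 CPM in CK666. Its groups overlapped and it was not called (0.47, SE 0.18, edgeR adjusted p 0.0572), but was in 4 of 19 alternatives: DESeq2 (adjusted p 0.0484), and edgeR without replicate 1 (0.0430) or its library with LIF2i (0.0264) or with CK666 (0.0409). Of its sequence, 36.2% of the exonic bases are shared with a gene on the opposite strand, whose reads cannot be told apart here.

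In TPM, the 3 adhesion molecules summed to 387, 203 and 248 with LIF2i and to 73.3, 66.7 and 74.3 without. Jam2 held 83.1, 81.5 and 87.9% of that sum with LIF2i and 1.56, 6.75 and 3.43% without. F11r took over as the main transcript, from 11, 14.5 and 8.66% to 66.5, 75.2 and 79.9%. The endothelial marker Pecam1 fell beside Jam2, from 176 to 216 CPM with LIF2i to 10.6 to 15.8 CPM in withdrawn controls and 22.1 to 82.2 CPM in CK666. The defining endothelial markers Cdh5 and Kdr stayed under 1 CPM in every library, and Tek was at 2.68 to 14.2 CPM.

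Ocln and the Marveld genes rose together. Ocln, a strand protein that is not needed to form strands, was at 12.9, 10.9 and 8.56 CPM with LIF2i, 28.5, 27.4 and 26.8 CPM without, and 27.3, 22.3 and 26.1 CPM in CK666. The withdrawn control libraries differed little from each other, and the change was 1.36 (SE 0.17, edgeR adjusted p 0.000293). Marveld2, for tricellulin, which sits at the corners between cells, went from 1.67, 3.71 and 2.98 CPM to 13.8, 17.8 and 22.6 CPM, and stood at 9.15, 8.10 and 12.2 CPM in CK666. Its 3 groups did not overlap, and the withdrawal change was 2.70 (SE 0.27, edgeR adjusted p 8.79e-05).

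Marveld3, which can partly stand in for its relatives, went from 2.56, 1.15 and 1.03 CPM to 11.3, 19.8 and 18.2 CPM, with 9.38, 8.72 and 17.2 CPM in CK666. It changed by 3.34 (SE 0.44, edgeR adjusted p 0.000387), the largest change of the MARVEL genes, and by 4.14 without the replicate 1 libraries or 4.08 without the replicate 1 library with LIF2i. Marveld1, included by its name, went from 11.9, 14.0 and 13.4 CPM to 31.4, 32.6 and 30.7 CPM, with 47.2, 32.0 and 33.8 CPM in CK666. It changed by 1.27 (SE 0.18, edgeR adjusted p 0.000534), and its groups with and without LIF2i did not overlap.

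Of the ZO scaffolds, Tjp1 was abundant in every group and rose by a small amount, and Tjp3 was not called. Tjp1, for ZO-1, was at 220, 167 and 180 CPM with LIF2i, 316, 237 and 225 CPM without, and 354, 248 and 232 CPM in CK666. Replicate 1 was the highest library of every group. Tjp1 changed by 0.45 (SE 0.11, edgeR adjusted p 0.00941), and the groups with and without LIF2i did not overlap. It lost its call without the replicate block (edgeR adjusted p 0.188), without replicate 2 (0.111) and without replicate 3 (0.0648).

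Tjp3, for ZO-3, found mainly in epithelia, was at 19.8, 22.7 and 27.9 CPM with LIF2i, 20.3, 57.8 and 44.5 CPM without, and 17.5, 43.3 and 51.5 CPM in CK666. The libraries of replicate 1 without LIF2i lay at the level of self-renewal and those of replicates 2 and 3 lay above it. Its change of 0.67 (SE 0.25, edgeR adjusted p 0.0538) was not called, and it was called in 7 of 19 alternatives, at 1.05 without replicate 1 (edgeR adjusted p 0.00126).

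Tjp1 is made in forms with and without the alpha domain of ZO-1, the form with it being the one usually found in epithelial junctions. The exon that separates the annotated transcripts Tjp1-202 (with) and Tjp1-201 (without) is exon 20 of Tjp1-202, 240 coding bases or 80 codons, and is printed here in the sense direction from the reference transcript, with no part in capitals.
Tjp1 exon 20 (chr7:65314093-65314332, minus strand): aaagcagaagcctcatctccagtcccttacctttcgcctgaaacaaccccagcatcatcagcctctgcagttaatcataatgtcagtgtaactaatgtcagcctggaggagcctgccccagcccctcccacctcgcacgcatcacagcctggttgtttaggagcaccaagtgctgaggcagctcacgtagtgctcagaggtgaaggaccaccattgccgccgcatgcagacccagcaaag
Tjp1-202 held 29.3, 48.4 and 54.8% of the estimated counts of the gene with LIF2i, 42.8, 49.7 and 52.9% without, and 44.8, 50.2 and 56.0% in CK666. Tjp1-201 held 59.6, 46.8 and 36.9%, 50.4, 39.7 and 38.0%, and 47.7, 43.0 and 39.9%. In all 3 groups the form with the exon was lowest in replicate 1 and highest in replicate 3, and the groups overlapped. The split between overlapping transcripts is an estimate, so no test was made. For Ocln, Cgn and Tjp3 the split changed so much between replicates of 1 group (Tjp3-205 at 0, 54.1 and 54.5% with LIF2i) that no comparison of groups can be read from it.

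Both cingulins rose. Cgn, which binds ZO-1, went from 10.3, 20.3 and 20.0 CPM to 26.7, 84.5 and 84.1 CPM, and stood at 69.0, 77.7 and 91.9 CPM in CK666. The groups with and without LIF2i did not overlap, with replicate 1 lowest in each group, and the change was 1.88 (SE 0.25, edgeR adjusted p 0.000419). Cgnl1, for paracingulin, which is found at tight and adherens junctions, went from 11, 11.1 and 14.5 CPM to 39.2, 44.0 and 26.2 CPM, and stood at 69.1, 69.9 and 37.4 CPM in CK666. It changed by 1.53 (SE 0.25, edgeR adjusted p 0.00131), with no overlap between the groups with and without LIF2i.

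Of the 17 calls, 12 were met in every alternative analysis that tested the gene: Cldn1, Cldn3, Cldn6, Cldn7, F11r, Jam2, Ocln, Marveld1, Marveld2, Marveld3, Cgn and Cgnl1. The stricter filter left out Cldn1, and the others were tested in all 19. Without the replicate block 14 of the 23 genes were called (24.0% of all genes). Leaving out the replicate 1 libraries, which stand apart, gave 21 of 23 (44.8% of all genes).

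**Figure D3:**
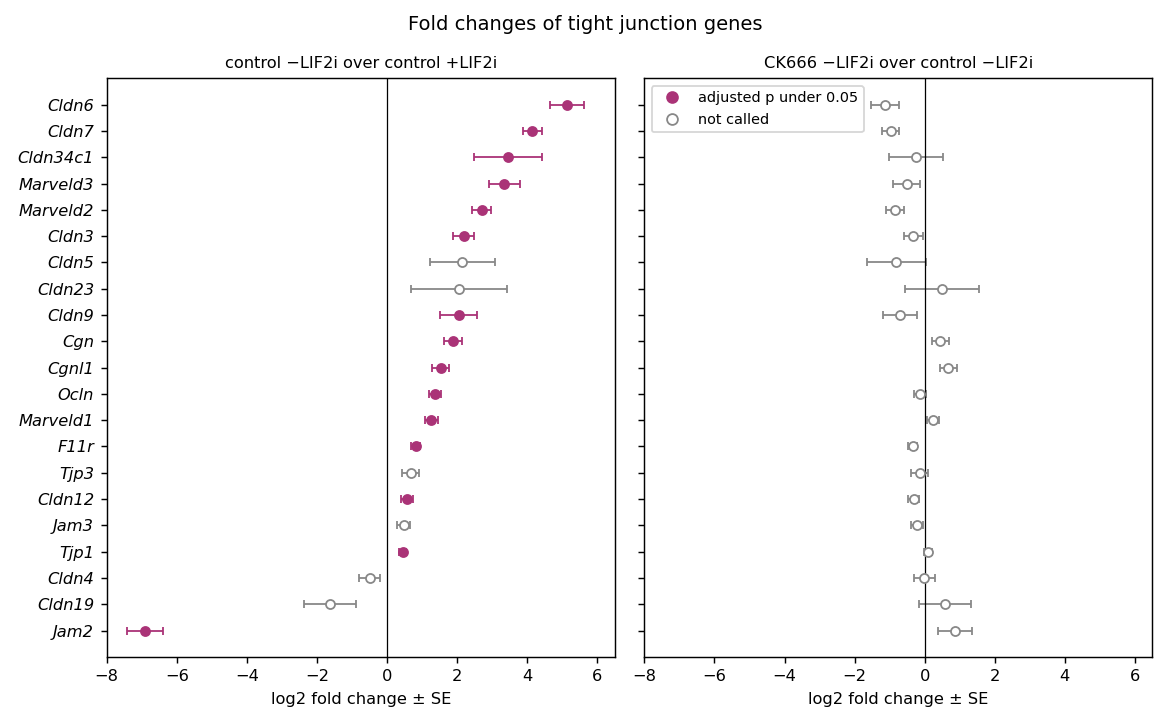
Log2 fold changes with SE for 21 tested genes (Cldn1 is left out because it had no count with LIF2i), for withdrawal on the left and for CK666 against control without LIF2i on the right, with filled points where the edgeR adjusted p was under 0.05. The points spread from -6.90 (Jam2) to 5.14 (Cldn6) on the left, and none is filled on the right.

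CK666 during withdrawal was compared with withdrawal alone. No tight junction gene passed the adjusted threshold, and Cldn6 and Cldn7 were lower with CK666 in every same-numbered pair. Of the 23 genes 0 were called by edgeR (2.05% of all genes were). An unadjusted p under 0.05 was found for 5 (21.7%), a share near the 19.7% of all genes: Cldn6, Cldn7, F11r, Marveld2 and Cgnl1. In 11 of the 23 the CK666 library was lower in 3 of 3 pairs (23.3% of all genes) and in 3, Cgnl1, Jam2 and Tjp1, it was higher in 3 of 3 (25.3% of all genes). Control and CK666 libraries did not overlap in 5 genes (21.7%, beside 16.5% of all genes): Cldn1, Cldn9, Cldn12, F11r and Marveld2. The median log2 fold change of the 23 was -0.22, against 0.02 over all tested genes. Both this comparison and that of withdrawal use the control libraries without LIF2i, so their values are given side by side and no relation between them is drawn.

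Cldn7 came closest to the threshold. With CK666 it stood 1.96-fold lower (-0.97, SE 0.24, edgeR adjusted p 0.0668), beside 4.15 for withdrawal. The paired differences were -1.04, -1.44 and -0.53 on the log2 scale, and the groups overlapped, with the CK666 library of replicate 3 (70.4 CPM) above the control of replicate 1 (35.9 CPM). Cldn6 differed by -1.12 (SE 0.40, edgeR adjusted p 0.179), 2.18-fold lower, with paired differences of -0.92, -1.82 and -0.79. In replicate 2 its CK666 library held 71.1 CPM against 251 CPM in the control.

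Tricellulin and JAM-A were also lower with CK666 in 3 of 3 pairs. Marveld2 differed by -0.85 (SE 0.25, edgeR adjusted p 0.105), 1.81-fold lower, and all 3 CK666 libraries (8.10 to 12.2 CPM) lay under all 3 controls (13.8 to 22.6 CPM). F11r differed by -0.34 (SE 0.13, edgeR adjusted p 0.180), also without overlap. Cldn9 (-0.71, SE 0.49) and Cldn12 (-0.31, SE 0.16) did not overlap either, with edgeR adjusted p of 0.464 and 0.315, while the 3 control libraries of Cldn1 (1.25 to 2.07 CPM) lay above those with CK666 (0.283 to 1.06 CPM). Cldn3 was lower in 2 of 3 pairs and higher in replicate 3 (-0.33, SE 0.28, edgeR adjusted p 0.563).

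The plaque genes lay on both sides of 0. Cgnl1 was higher with CK666 in 3 of 3 pairs, by 0.68 (SE 0.24, edgeR adjusted p 0.160). Cgn differed by 0.45 (SE 0.24, edgeR adjusted p 0.346), with 26.7 against 69.0 CPM in replicate 1, and by -0.01 without the replicate 1 libraries. Tjp1 differed by 0.09 (SE 0.11, edgeR adjusted p 0.693) and Tjp3 by -0.14 (SE 0.24, 0.799). Ocln differed by -0.13 (SE 0.17, edgeR adjusted p 0.720), and its CK666 values of 22.3 to 27.3 CPM remained above the 8.56 to 12.9 CPM of self-renewal. Jam2 differed by 0.86 (SE 0.48, edgeR adjusted p 0.373) at levels of 1.11 to 8.38 CPM. Cldn4 differed by -0.02 (SE 0.30, edgeR adjusted p 0.984), with a sign that changed between alternatives.

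Some alternatives did call single genes for CK666. The DESeq2 Wald test called 2 of 23 (7.76% of all genes), Cldn7 (-0.99, DESeq2 adjusted p 0.00441) and Marveld2 (-0.87, 0.0316). Without the replicate 1 libraries edgeR called 1 of 23 (12.3% of all genes), Marveld2 at -1.02 (adjusted p 0.0257). Leaving out the replicate 1 library with LIF2i, which is no part of the comparison but shares the fit, called Cldn6 (edgeR adjusted p 0.0297), Cldn7 (0.0464) and Marveld2 (0.0240), 3 of 23 beside 1657 of all 14998 genes. Leaving out that of replicate 2 called Cldn7 (0.0433), 1 of 23 beside 1.78% of all genes. Without the replicate block edgeR called 0 of 23 and 0 of all 14648 genes, and 2 of the 23 had an unadjusted p under 0.05, beside 1251 of all genes.

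**Figure D4:**
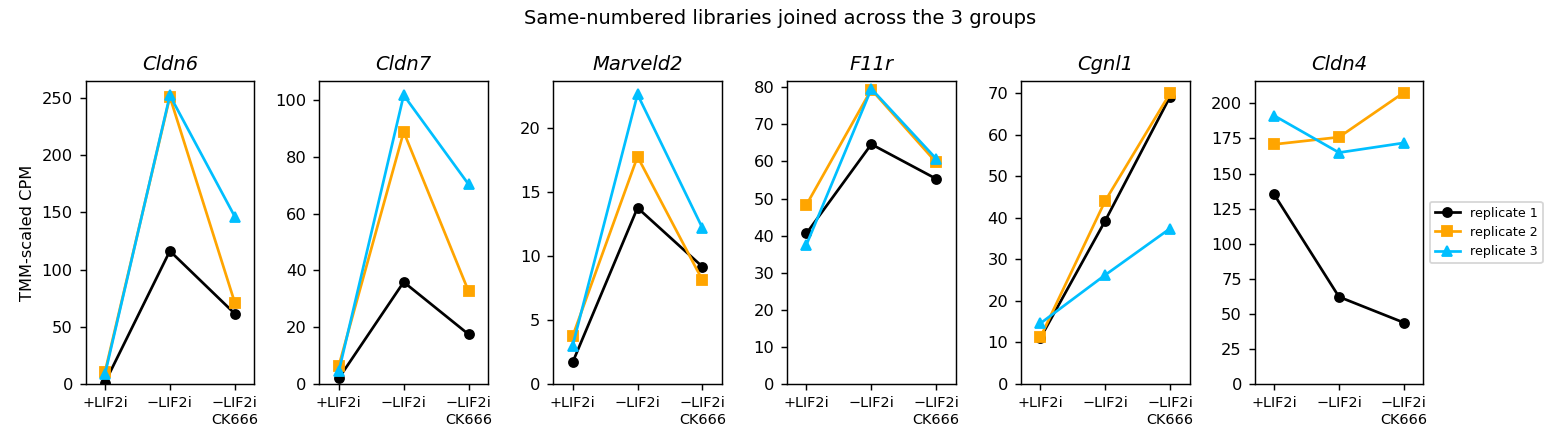
TMM-scaled CPM of 6 genes, with the 3 same-numbered libraries joined across the groups and each axis starting at 0. Apart from Cldn4 these are the 5 genes with an unadjusted edgeR p under 0.05 for CK666, and none was called. For CK666, 48.6% of all genes lay in 1 direction in 3 of 3 pairs. In all 3 lines Cldn6, Cldn7, Marveld2 and F11r are highest in the control without LIF2i and Cgnl1 is highest with CK666, and Cldn4 is far lower in replicate 1 than in the others without LIF2i.

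Cells withdrawn with CK666 were also compared with self-renewing cells. This comparison shares the libraries with LIF2i with that of withdrawal, so the values are given side by side and no relation is drawn. Of the 23 genes 14 were called as raised (19.8% of all genes) and 1, Jam2, as lowered (17.1% of all genes), and the median was 1.34 against 0.01 over all tested genes. Cldn6 was higher by 4.01 (SE 0.47, edgeR adjusted p 0.000513), or 16.2-fold, and Cldn7 by 3.18 (SE 0.27, edgeR adjusted p 4.65e-05), or 9.06-fold. The rise of Cgn was 2.33 (SE 0.26, edgeR adjusted p 0.000162) and that of Cgnl1 was 2.21 (SE 0.26, adjusted p 0.000217), beside 1.88 and 1.53 in withdrawal alone. Jam2 was lower by 65.6-fold (-6.04, SE 0.49, edgeR adjusted p 8.25e-05). Cldn9 and Cldn12, called for withdrawal alone, were not called here (1.34, edgeR adjusted p 0.0749, and 0.26, adjusted p 0.246). Calls of F11r (0.48, edgeR adjusted p 0.0174) and Tjp1 (0.54, 0.00426) were lost without the block, at adjusted p of 0.0688 and 0.121. Tjp1 also lost its call without replicate 2 (0.0682). F11r lost it without replicate 2 or 3, the CK666 library of replicate 1 or 3, or the library with LIF2i of replicate 3 (0.0569 to 0.197), and with length-scaled TPM (0.149) and limma on TPM (0.167). Cldn1 lost it without replicate 3 (0.0522) and with limma on TPM (0.0742), and Cldn34c1 (3.20, edgeR adjusted p 0.0293) kept it in 10 of 18 alternatives, losing it without replicate 1 (0.0586) or 2 (0.169), the CK666 library of either, both control libraries of replicate 2 in turn and the withdrawn control of replicate 3, and with length-scaled TPM (0.0505).

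Around these genes, 44 partners were listed: polarity proteins, other scaffolds, other adhesion receptors and proteases of the junction. This list and the list of regulators below were made with earlier results of these data known, so their counts are a description. Of the 43 tested, 22 rose (21.1% of all genes did) and 6 fell (19.7% of all genes) after withdrawal, with a median log2 fold change of 0.54 against 0.01 over all genes, and without the block 16 rose and 2 fell (24.0% of all genes were then called in either direction). The largest changes were those of Amot (3.83, SE 0.34), for angiomotin, Crb3 (3.48, SE 0.30), an apical polarity protein, Magi2 (3.41, SE 0.53), a scaffold, Ildr1 (-3.28, SE 0.22) and Ildr2 (3.11, SE 0.49). The highest edgeR adjusted p among them was 0.00107. Amot went from 2.01, 3.24 and 3.95 CPM with LIF2i to 56.5, 29.6 and 51.0 CPM without, and Crb3 from 1.42, 8.26 and 4.62 CPM to 23.6, 56.6 and 66.2 CPM.

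Of the receptors that hold tricellulin at cell corners, Ildr1 fell and Ildr2 rose, and Ildr1 remained the higher in CPM. Ildr1 stood at 81.5, 113 and 101 CPM with LIF2i and 10.1, 9.34 and 10.4 CPM without, and Ildr2 at 0.737, 0.0523 and 0.182 CPM and 4.58, 1.30 and 1.73 CPM. Lsr, the third such receptor, and Epcam, which binds claudin 7, are named after their values were seen. Lsr went from 22.4, 29.1 and 29.6 CPM to 81.7, 61.5 and 83.5 CPM (1.48, SE 0.16, edgeR adjusted p 0.000121). Epcam went from 11.7, 73.2 and 63.2 CPM to 217, 402 and 307 CPM (2.88, SE 0.37, edgeR adjusted p 0.000525), with replicate 1 lowest in both groups.

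With CK666 the partner list had a median of 0.01 against 0.02 over all genes, and 1 of 43 was called, a share close to the 2.05% of all genes. This was Arhgef2, for an exchange factor that cingulin binds, at 155, 118 and 118 CPM in withdrawn controls and 223, 181 and 184 CPM with CK666 (0.60, SE 0.10, edgeR adjusted p 0.0304). The groups did not overlap. The call held in 8 of 19 alternatives and not without the block (adjusted p 0.356), without replicate 2 or 3, or without 6 of the 9 single libraries: every withdrawn control, the CK666 libraries of replicates 2 and 3 and the library with LIF2i of replicate 3.

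Of 14 listed regulators of epithelial genes, 12 were tested, and 6 rose (21.1% of all genes did) and 5 fell (19.7% of all genes) after withdrawal. The largest changes were those of Esrp1, a splicing factor of epithelia (6.92, SE 0.25), Grhl2, a Grainyhead factor that binds claudin genes (4.74, SE 0.68), Tfap2c (-4.30, SE 0.32), Grhl3 (-4.21, SE 0.25) and Klf5 (-2.74, SE 0.31). The highest edgeR adjusted p among these was 0.00122. Esrp1 stood at 0.393, 1.36 and 1.09 CPM with LIF2i, 69.6, 129 and 144 CPM without, and 29.7, 44.5 and 78.7 CPM in CK666. Grhl2 went from 0.0491, 2.40 and 2.07 CPM to 37.2, 40.8 and 37.5 CPM while its relative Grhl3 went from 49.6, 72.2 and 69.2 CPM to 2.65, 3.53 and 4.10 CPM. Esrp1 was also the 1 of 12 regulators called for CK666 (2.05% of all genes were), at -1.20 (SE 0.18, edgeR adjusted p 0.0260), in 11 of 19 alternatives and not without the block (adjusted p 0.477), without replicate 2 or 3, without any single withdrawn control or without the CK666 library of replicate 2.

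**Figure D5:**
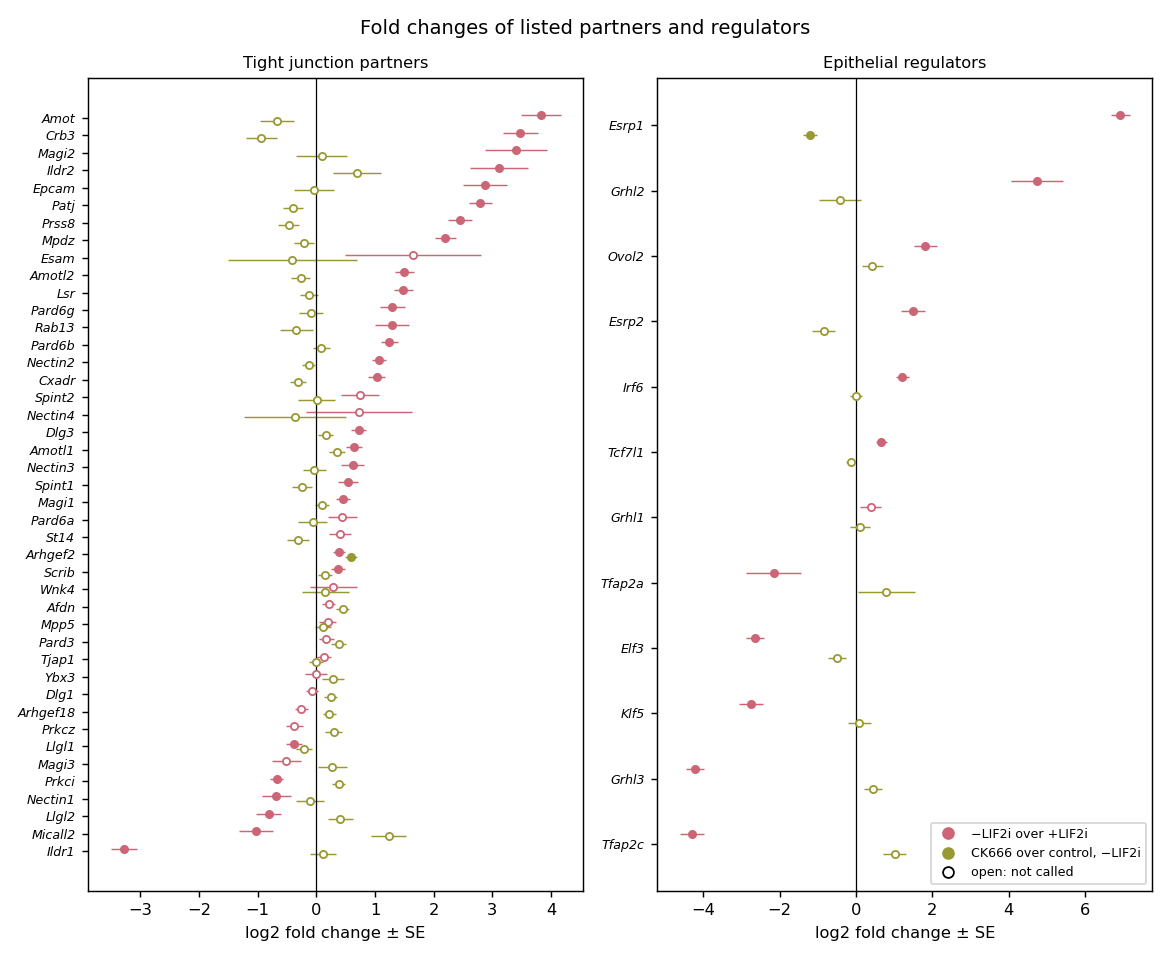
Log2 fold changes with SE of the 43 tested partners (left) and 12 tested regulators (right), for withdrawal and for CK666 against control without LIF2i, filled where called. Amot and Esrp1 top their panels in the withdrawal comparison, and Arhgef2 and Esrp1 are the filled points for CK666.

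Markers of other cell types were measured beside these genes. The 8 trophectoderm markers summed to 126 to 149 CPM with LIF2i, 162 to 400 CPM in withdrawn controls and 118 to 384 CPM with CK666. Cdx2 and Elf5, which define that lineage, stayed under 1 CPM in every library, and Eomes was at 2.35 to 14.8 CPM. The listed markers moved in opposite directions after withdrawal. Tfap2c, which is also on the regulator list, held most of the sum with LIF2i (85.5, 87.1 and 97.1 CPM) and was at 2.07 to 6.90 CPM without. Krt8 (16.4 to 44.3 CPM with LIF2i and 51.5 to 154 CPM without) and Krt18 (3.34 to 12.5 CPM and 92.1 to 272 CPM), keratins of many simple epithelia, were higher. Krt7 stood at 0 to 2.04 CPM with LIF2i, 3.18 to 5.50 CPM without and 3.52 to 4.76 CPM in CK666. Gata3 stood at 0.182 to 1.23 CPM, 0.675 to 2.64 CPM and 2.32 to 4.52 CPM in the same order. The 7 primitive endoderm markers summed to 11.8 to 14.7 CPM with LIF2i, 20.9 to 50.1 CPM without and 27.4 to 42.7 CPM in CK666. Dab2 moved most, from 2.07 to 4.18 CPM with LIF2i to 13.3 to 34.2 CPM without, Gata4 stood at 3.58 to 13.2 CPM, and Sox17 and Foxa2 were under 1 CPM in every library. The 6 fibroblast markers summed to 6.01 to 9.39, 29.4 to 33.0 and 17.1 to 26.7 CPM. Among them Thy1 went from 3.46 to 5.11 CPM with LIF2i to 20.6 to 21.5 CPM without and Col1a2 from 0 to 1.09 CPM to 2.22 to 3.94 CPM, and Lum was under 1 CPM throughout. The 6 stem cell markers summed to 2735 to 4056, 2185 to 2271 and 1807 to 2190 CPM, and members of this list moved in opposite directions: Zfp42 went from 490 to 785 CPM with LIF2i to 29.1 to 42.8 CPM without, and Utf1 from 30.2 to 72.7 CPM to 239 to 453 CPM. The part of other cell types in the changes of the tight junction genes was not tested.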

How the data were processed

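The authors' deposited tables give, per the file headers, estimated counts, TPM, transcript length and effective length for 119414 transcripts in each library. Deposited estimated counts carry no scaling, and the deposited TPM are normalised for transcript length and library. The submitters' processing notes name FastQC, cutadapt 1.8.1, kallisto and sleuth, and the builds GRCh38 and mm10; what each was used for, and whether strand was used, is not given in the sources used here. GENCODE M21 (GRCm38) gave a gene for 116640 transcripts (97.7%), and the rest, with 0.895 to 1.08% of each library's counts, were left out. Levels in TPM compare genes per length, and levels in CPM compare libraries.

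Estimated counts were summed per gene and rounded. edgeR 4.0.16 in R 4.3.3 tested them (TMM scaling, filterByExpr, robust quasi-likelihood fit of all 9 libraries, 4 residual degrees of freedom), and the SE is the size of the log2 fold change over the root of the F statistic. The replicate number was a block because the study's design calls the replicates paired. Deviations from the group means correlated at a median of 0.41 (0.30 to 0.65 over 9 pairs) across genes between same-numbered libraries. Those of replicate 1 gave 0.48 to 0.65, and those of replicates 2 and 3 gave 0.30 to 0.51. Between different numbers the median was -0.37. Replicates 2 and 3 correlated there at 0.21 to 0.29, and every pair of replicate 1 with another number was negative. The values therefore cannot separate pairing from the distance of replicate 1. Alternatives used limma 3.58.1 on log2(TPM + 1), DESeq2 1.42.0, other filters and scalings, no block, and leaving out libraries.

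The genes and lists were chosen with earlier results of these data known. Values in every library are given for tight junction genes called for withdrawal or CK666 and for the 12 with the highest mean TPM. Partners and regulators are named when called for CK666 or among the 5 largest called changes of withdrawal. RefSeq promoter windows (GRCm38.p6) matched 32 of the 44 genes. Cldn34c3 also fits the name rule and was not analysed here. A further gene is counted among those tested and is not reported here.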

Additional observations from a re-analysis of the deposited data

How the results depend on the processing

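Over 19 alternatives, the counts of called genes stayed within 1.5 times for withdrawal (17 of 23, 13 to 21 when libraries were left out) and for CK666 against self-renewal (15, 11 to 18), and were 14 and 12 without the replicate block. The share of all genes called moved too, for CK666 against self-renewal from 36.9% to 20.2% without the block and to 16.1% and 41.6% at the extremes of leaving libraries out. For CK666 against control the 0 calls became 2 with DESeq2 and 0 to 3 when libraries were left out, and stayed 0 without the block. Of 1293 log2 fold changes of single genes under alternatives, 1195 kept their direction and side of the threshold, 49 lost a call, 31 gained one and 18 changed sign. For CK666 they were Cldn4 at 0.071 without the block, Cldn34c1 at 0.070 with limma on TPM and, with length-scaled TPM, Cldn34c1 at 0.26, Cldn12 at 0.034 and Ocln at 0.0040. When libraries were left out, the CK666 changes of Cldn4 ran from -0.31 to 0.30, of Cldn34c1 from -0.94 to 0.23, of Cldn23 from -0.13 to 1.27, of Tjp3 from -0.33 to 0.12 and of Cgn from -0.014 to 0.72. Cldn4 ran from -0.77 to 0.042 for withdrawal and from -0.92 to 0.071 for CK666 against self-renewal. Counts over the partner and regulator lists under alternatives were added after the data were seen. For withdrawal, 28 partners became 18 without the block. For CK666, 1 partner became 0 without the block and with either TPM-based fit, 5 with DESeq2 (7.76% of all genes were called), 2 with no filter (2.50% of all genes) and 0 to 8 when libraries were left out (up to 12.3% of all genes). The 1 regulator became 0 without the block and with limma on TPM, 2 with DESeq2 and 0 to 4 when libraries were left out, beside the same shares of all genes. The cause of these shifts was not tested. Depth allows no comparison for the 9 untested claudins with at most 12 counts in a library.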
